A study of Mus musculus with 24 samples.

Results

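The 36 genes described here mark macrophages and the wider myeloid lineage: pan-leukocyte proteins, macrophage identity and lysosomal genes, markers of resident and of recruited cardiac macrophages, the complement C1q chains, Fc receptors with their signalling partners, and the antigen presentation genes of MHC class II. They were taken by symbol from the 45281 probes of the Illumina MouseWG-6 v2 BeadChip. A probe with the symbol was found for 35 of the 36, all but Cd68. These 35 genes had 64 probes, of which 45 were detected on at least 3 arrays (detection p under 0.05), and 29 of the genes could be tested among 12011 in all. The arrays carried RNA of whole hearts from 24 female FVB/N mice, 1 array per mouse. MHC-CELFΔ mice carry a hemizygous transgene in which the α-myosin heavy chain promoter drives a nuclear dominant negative CELF protein, so that the RNA-binding CELF proteins are repressed in heart muscle cells and not in the macrophages themselves. The severe line (MHC-CELFΔ-10) was sampled at 3 weeks (n = 3) and 24 weeks (n = 5), and so was the mild line (MHC-CELFΔ-574), also with 3 and 5 mice. Heart disease abates with age in the mild line. Each age had 4 wild type littermates, 2 from each line, which served as the controls of both lines. A line is 1 transgene insertion, so its integration site and its expression level cannot be told apart.

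Macrophages are the most abundant leukocytes of the healthy heart. Some arise before birth, renew themselves in place and carry Lyve1, Folr2, Cd163 and Mrc1, and others descend from blood monocytes that follow chemokines through the receptor CCR2 into injured tissue. Both kinds depend on the growth factor receptor CSF1R, engulf dying cells, tag them with complement C1q, read antibodies through Fc receptors and show peptides to T cells on MHC class II. In whole-heart RNA a difference in the number of such cells and a difference in the RNA each cell holds cannot be told apart.

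The results turn mostly on 7 genes that were higher in severe line hearts at 24 weeks. The promoters of 6 of them are shown because these genes moved in the same direction. The letters run 5′ to 3′ from 250 bases before to 50 after the RefSeq start site (GRCm38.p6), and capitals mark the core motif of the myeloid transcription factor PU.1 (GAGGAA, or TTCCTC on the other strand) and the CCAAT box (CCAAT or ATTGG).
Lgals3, chr14:47373610-47373909, plus strand: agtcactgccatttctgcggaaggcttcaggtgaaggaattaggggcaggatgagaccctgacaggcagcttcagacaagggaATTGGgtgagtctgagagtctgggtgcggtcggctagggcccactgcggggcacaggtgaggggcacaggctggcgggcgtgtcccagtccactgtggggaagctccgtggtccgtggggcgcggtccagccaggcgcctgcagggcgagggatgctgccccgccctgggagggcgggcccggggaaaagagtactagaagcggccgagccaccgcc
Laptm5, chr4:130913066-130913365, plus strand: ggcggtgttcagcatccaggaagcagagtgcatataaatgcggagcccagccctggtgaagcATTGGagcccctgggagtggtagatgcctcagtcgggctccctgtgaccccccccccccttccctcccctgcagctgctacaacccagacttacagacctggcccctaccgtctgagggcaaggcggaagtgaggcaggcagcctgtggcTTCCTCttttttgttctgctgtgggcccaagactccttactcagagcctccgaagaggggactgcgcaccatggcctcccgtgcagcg
C1qc, chr4:136892865-136893164, minus strand: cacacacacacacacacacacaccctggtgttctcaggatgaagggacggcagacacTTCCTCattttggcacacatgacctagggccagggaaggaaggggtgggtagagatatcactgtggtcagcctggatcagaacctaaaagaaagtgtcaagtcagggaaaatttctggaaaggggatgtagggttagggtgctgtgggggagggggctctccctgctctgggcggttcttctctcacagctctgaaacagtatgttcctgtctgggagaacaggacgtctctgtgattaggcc
Cx3cr1, chr9:120068247-120068546, minus strand: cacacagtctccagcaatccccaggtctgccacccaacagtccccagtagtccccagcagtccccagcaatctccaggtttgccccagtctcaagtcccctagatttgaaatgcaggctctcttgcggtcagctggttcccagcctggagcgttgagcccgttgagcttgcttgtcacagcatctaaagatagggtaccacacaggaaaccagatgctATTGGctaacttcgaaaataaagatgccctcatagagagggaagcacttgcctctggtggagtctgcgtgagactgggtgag
Fcgr3, chr1:171059345-171059644, minus strand: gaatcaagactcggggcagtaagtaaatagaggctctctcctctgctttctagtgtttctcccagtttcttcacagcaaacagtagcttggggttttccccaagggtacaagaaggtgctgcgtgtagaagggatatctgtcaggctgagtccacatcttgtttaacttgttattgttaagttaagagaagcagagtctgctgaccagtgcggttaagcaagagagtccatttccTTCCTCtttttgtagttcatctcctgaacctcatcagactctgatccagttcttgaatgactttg
Ly86, chr13:37345095-37345394, plus strand: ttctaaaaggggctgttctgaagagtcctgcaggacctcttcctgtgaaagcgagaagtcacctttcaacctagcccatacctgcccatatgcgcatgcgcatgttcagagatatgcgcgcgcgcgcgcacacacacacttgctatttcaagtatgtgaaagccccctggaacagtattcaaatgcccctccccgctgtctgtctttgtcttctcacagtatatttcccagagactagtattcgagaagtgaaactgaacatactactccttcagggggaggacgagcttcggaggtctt
The Fcgr3 promoter shown is the first of a pair whose start sites lie close together, and no promoter of Adgre1 was in the table. The GAGGAA letters were in the promoters of C1qc, Fcgr3 and Laptm5, and the CCAAT letters in those of Cx3cr1, Laptm5 and Lgals3. No match of one motif overlapped a match of the other. Over the 31 promoters of the 26 members that the table held, 48.4% had GAGGAA and 38.7% had CCAAT, against 28.3% and 37.4% of all 32851 promoters. A match is a description of the letters in this window and says nothing of binding.

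Of the 29 members tested, 25 were detected on all 24 arrays and 2 more, Ctss and Tyrobp, on 23. H2-Eb1 was detected on 12 arrays and Itgb2, the common β2 integrin chain, on only 3. The untested members Ptprc (CD45), Ccr2, Itgam (CD11b), Fcer1g, Cybb and H2-Aa were detected on at most 2 arrays for any probe. Both probes of Ccr2 and the probe of Itgam were detected on none. The recruited monocyte side of the list thus rested on Cd14 and Lgals3, and no statement on CCR2-positive or CD11b-positive cells was possible at this signal. A Lyz1 probe was the brightest of the list, with a mean of 12.08 log2 units over all arrays, and Laptm5 followed at 10.65. The other Lyz1 probes were detected on 2 arrays and on none, at means of 6.41 and 6.18. Between 32.0% and 44.4% of all probes were detected per array.

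The arrays formed 2 sets of 12 by the lowest raw intensity, 54.2 to 62.8 in one set (higher background) and 38.9 to 47.2 in the other (lower background), and every group had arrays in both. At 3 weeks wild type mice of the severe line were in the higher set and those of the mild line in the lower. At 24 weeks it was the reverse. Fits within a set, or with own-line wild type arrays, thus changed set and line of origin together. Of the 3 week transgenic arrays, the lower set held only replicate 3 of each line. Of 7 lung markers, 3 (Ager, Scgb1a1 and Sftpd) were detected on at least 3 arrays, and the surfactant genes Sftpc, Sftpb and Sftpa1 on none. These 3 averaged 8.70 on severe line 24 week replicate 4, 9.62 on mild line 24 week replicate 4 and 9.07 on wild type 3 week replicate 3, against at most 7.20 on the other 21 arrays. Lung holds many macrophages, so counts are also given without those 3 arrays. Heart muscle markers averaged 12.74 to 13.58 on every array.

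At 24 weeks every called member was higher in the severe line than in wild type. Lgals3 was 4.62-fold higher, and Laptm5, Adgre1, C1qc, Fcgr3, Cx3cr1 and Ly86 were 1.31-fold to 1.53-fold higher. By limma over all 12011 genes, 7 of the 29 members rose at a Benjamini-Hochberg adjusted p under 0.05 and none fell, where 8.26% of all genes rose and 7.32% fell. At an unadjusted p under 0.05, 13 members rose and 0 fell. No share of all genes was counted at unadjusted p, here or below, so such counts lack a background. The median difference of the 29 members was 0.25 log2 units, against 0.00 over all genes, and 27 of the 29 lay above 0. Members were read on the same arrays, so their signs are not independent here or below. Only Lgals3 passed the 2-fold threshold of the study, which 1.02% of genes passed upward. Fitted on the 12 arrays of each background set alone, the count was 3 (higher) and 2 (lower) and the median difference 0.24 and 0.28. The count was 4 without the 3 arrays with lung markers, without wild type replicate 1 or without wild type replicate 4.

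**Figure D1:**
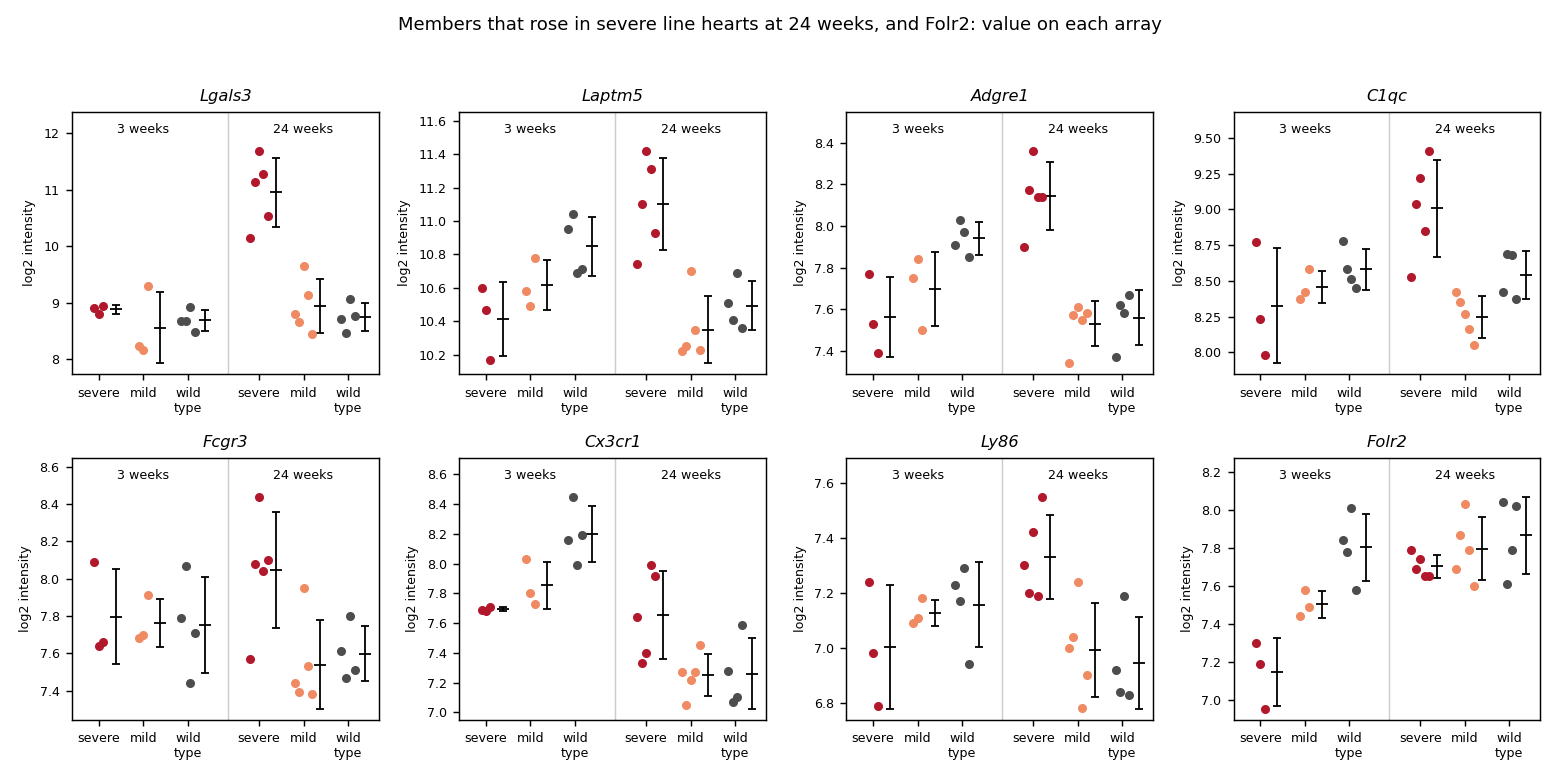
Log2 intensity (vertical axis) on each array for the 7 members that rose in severe line hearts at 24 weeks and for Folr2, which fell at 3 weeks; points are arrays, and the bars give mean ± SD of severe line, mild line and wild type groups at 3 and 24 weeks. The 5 severe line points of Lgals3 at 24 weeks sit between 10.15 and 11.69, above the highest wild type value of 9.06.

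Lgals3, which encodes galectin-3, a β-galactoside-binding lectin of activated macrophages that other cells such as fibroblasts also make, had log2 values of 10.15, 11.14, 11.69, 11.28 and 10.54 in severe line hearts at 24 weeks. It had 8.80, 8.66, 9.66, 9.14 and 8.44 in the mild line and 8.71, 8.46, 9.06 and 8.77 in wild type. Every severe line array was above every mild line and wild type array. The group means were 10.96 ± 0.61 in the severe line and 8.75 ± 0.25 in wild type (SD, n = 5 and 4), a difference of 2.21 ± 0.27 log2 units (SE, limma adjusted p = 3.69e-06). The call held in all 23 alternatives of processing, with differences of 2.01 to 2.41. Cd14, the lipopolysaccharide co-receptor and the other tested member of the recruited group, differed by 0.19 ± 0.15 (adjusted p = 0.486) and had overlapping groups.

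Adgre1, which encodes the surface antigen that defines mouse macrophages, was 7.90, 8.17, 8.36, 8.14 and 8.14 in severe line hearts at 24 weeks, and 7.37, 7.62, 7.58 and 7.67 in wild type hearts. The groups did not overlap, and the mean difference was 0.58 ± 0.10 (SE, limma adjusted p = 0.000119). A second Adgre1 probe rose by 0.46 (adjusted p = 0.00392), and the call was kept in all 23 alternatives. Lyz1, which codes for the secreted P lysozyme, was 0.50 higher (adjusted p = 0.0535), Csf1r 0.36 (adjusted p = 0.0971), Lyz2, the myeloid lysozyme, 0.34 (adjusted p = 0.158), Ctss, a lysosomal protease that trims the class II chaperone, 0.23 and Aif1, the actin-bundling protein Iba1, 0.21, and none of these 5 was called. All 6 tested genes of the identity and lysosome group were above 0. Lyz1 and Lyz2 are close copies, and cross-hybridisation between their probes was not tested. Only the probe used for Lyz1 passed the detection filter, so its values, here or below, may not be separate from those of Lyz2.

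Laptm5, a lysosomal membrane protein of all blood cell lineages, read 10.74, 11.10, 11.42, 11.31 and 10.93 in the severe line and 10.51, 10.41, 10.69 and 10.36 in wild type at 24 weeks. No severe line array fell into the wild type range, though replicate 1 was above the highest wild type value by only a small step. The difference was 0.61 ± 0.13 (SE, limma adjusted p = 0.00195), and it was lost in 1 alternative, within the set of lower background (adjusted p = 0.0823). The other leukocyte-wide genes were not called: Cd52, a lymphocyte and monocyte surface peptide, differed by 0.32, Cd53, a tetraspanin, by 0.19 and Coro1a, an actin regulator, by 0.19. Itgb2 was not above background on any of the 4 wild type arrays and was detected on 1 of the 5 severe line arrays, so no fold is given.

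Among the Fc receptors and signalling genes, Ly86 (MD-1, the partner of the receptor RP105) had 7.30, 7.20, 7.42, 7.19 and 7.55 in severe line hearts and 6.92, 6.84, 7.19 and 6.83 in wild type hearts. Severe replicate 4 and wild type replicate 3 met at the same rounded value, and the other arrays were apart. It differed by 0.39 ± 0.11 (SE, limma adjusted p = 0.0143), with an adjusted p of 0.0542 without wild type replicate 4. The Ly86 call was kept in 18 of the 23 alternatives. Fcgr3, a low-affinity IgG receptor, was 7.57, 8.08, 8.44, 8.04 and 8.10 in the severe line, against 7.61, 7.47, 7.80 and 7.51 in wild type, with severe line replicate 1 inside the wild type range. Its difference of 0.45 ± 0.15 (adjusted p = 0.0450) did not pass, at adjusted p of 0.0621 to 0.133, when severe line replicate 2, 3, 4 or 5 or wild type replicate 1, 2 or 4 was left out. The Fcgr3 call was kept in only 7 of the 23 alternatives, with differences of 0.28 to 0.65. Tyrobp (DAP12, the signalling adaptor of many myeloid receptors) differed by 0.20 and Fcgr2b, the inhibitory IgG receptor that B cells also carry, by 0.17, and neither was called.

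C1qc, the C chain of complement C1q, was 8.53, 9.04, 9.22, 8.85 and 9.41 in the severe line and 8.42, 8.69, 8.68 and 8.37 in wild type at 24 weeks. Severe line replicate 1 lay in the wild type range and the other 4 were above it. The difference was 0.47 ± 0.15 (SE, limma adjusted p = 0.0360), and the adjusted p was 0.0656 to 0.114 without severe line replicate 2, 3 or 5 or wild type replicate 1 or 4. The C1qc call was kept in only 9 of the 23 alternatives, with differences of 0.23 to 0.64. The B chain gene C1qb differed by 0.40 ± 0.19 (adjusted p = 0.181) and the A chain gene C1qa by 0.14 ± 0.12 (adjusted p = 0.527). All 3 chains form 1 protein, and 1 of their 3 genes was called.

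Of the 6 resident macrophage genes 1 was called, and their median difference was 0.13. Cx3cr1, the fractalkine receptor, had 7.64, 7.33, 7.40, 7.99 and 7.92 in severe line hearts and 7.28, 7.07, 7.10 and 7.59 in wild type hearts. Severe line replicates 2 and 3 lay in the wild type range. It was called at a difference of 0.40 ± 0.13 (SE, limma adjusted p = 0.0420) in only 7 of the 23 alternatives, and its adjusted p was 0.0613 to 0.135 without severe line replicate 1, 4 or 5 or wild type replicate 1, 2 or 3. The mannose receptor gene Mrc1 had 8.56, 8.84, 9.03, 8.67 and 9.69 in the severe line and 8.49, 8.43, 8.69 and 8.50 in wild type, a difference of 0.43 ± 0.17 (adjusted p = 0.102) to which replicate 5 gave the highest value. F13a1, the factor XIII A subunit, differed by 0.16 and Lyve1, the lymphatic vessel endothelial hyaluronan receptor, by 0.09. The haemoglobin scavenger receptor gene Cd163 and Folr2, the folate receptor of resident macrophages, differed by -0.02 and -0.16. Their signs were turned when the raw values were scaled to a common median, to 0.18 and 0.02. None of these 5 was called.

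At 24 weeks the antigen presentation genes ranged more widely between mice of a group than between the group means. H2-Ab1, a class II β chain, was 8.78, 9.55, 9.88, 9.48 and 8.82 in the severe line, 8.69, 8.39, 9.04, 9.54 and 8.48 in the mild line and 8.76, 8.66, 10.40 and 8.40 in wild type at 24 weeks. Wild type replicate 3 held the highest value of all 24 arrays. Cd74, the invariant chain that escorts class II molecules, had 11.54 on that same array, against 9.75 to 10.00 on the other 3 wild type arrays and 9.96 to 11.20 in the severe line. The differences of severe line from wild type were 0.32 ± 0.31 for Cd74, 0.25 ± 0.31 for H2-Ab1 and 0.07 ± 0.08 for H2-Eb1 (SE, limma adjusted p = 0.597, 0.695 and 0.683). Without wild type replicate 3 they were 0.74, 0.70 and 0.14 (adjusted p = 0.0729, 0.0564 and 0.341), so that 1 array moved each by more than 1.5 times. The 2 further detected probes of Cd74 differed by 0.05 and 0.28 and those of H2-Ab1 by 0.08 and 0.15, with none called.

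**Figure D2:**
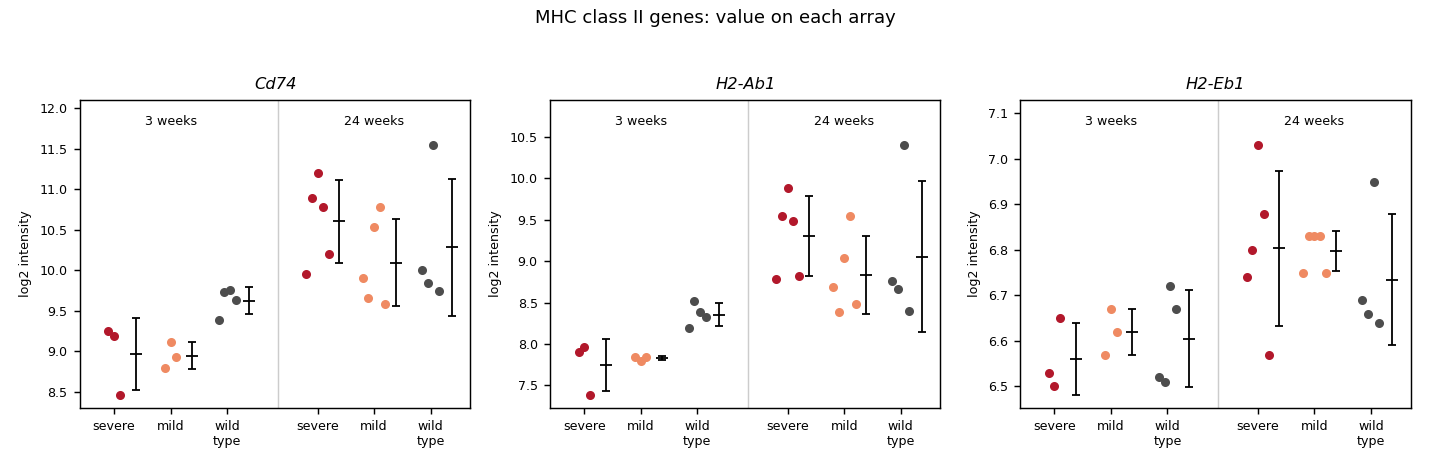
Log2 intensity (vertical axis) of the 3 tested MHC class II genes on each array, by line and age, with mean ± SD beside the points. The highest point of Cd74 (11.54) and of H2-Ab1 (10.40) is wild type replicate 3 at 24 weeks, and no group of 24 weeks stands clear of another.

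Across the list, 4 members (Adgre1, Laptm5, Lgals3 and Ly86) had every severe line array above every wild type array at 24 weeks, as 6.49% of all genes did. Of the recruited (2), resident (6) and antigen-presenting (3) members tested, 1 (Lgals3), 1 (Cx3cr1) and 0 rose, where 8.26% of all genes did. The resident genes Lyve1, Folr2, Cd163 and Mrc1 were not called. Counts from so few genes do not rank the roles.

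The question whether the lines themselves differ was addressed by setting severe against mild line hearts of the same age. At 24 weeks 12 of the 29 members were higher in the severe line and none lower, where 5.94% of all genes were higher and 5.33% lower. At an unadjusted p under 0.05, 18 members were higher and 0 lower, with no share of all genes counted. The median difference was 0.40 log2 units, against 0.00 over all genes. The called genes were Lgals3 (2.02), C1qc (0.76), Laptm5 (0.75), Lyz2 (0.65), Lyz1 (0.64), Mrc1 (0.62), C1qb (0.61), Adgre1 (0.61), Lyve1 (0.54), Fcgr3 (0.51), Cx3cr1 (0.41) and Ly86 (0.34), in log2 units. Lgals3 again was the only member past 2-fold, with 0.491% of all genes. Fits of each background set alone (higher, then lower) gave counts of 2 and 3, at medians of 0.33 and 0.42, and the count was 6 without the arrays with lung markers. The severe arrays are the same as in the comparison with wild type, so the 2 counts are not separate evidence.

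Lyz2 read 10.11, 10.45, 10.05, 10.59 and 10.25 in the severe line and 9.37, 9.82, 9.84, 9.60 and 9.60 in 24-week hearts of the mild line. The 2 lines did not overlap, and wild type (9.64, 10.38, 9.95 and 9.84) reached into the severe range. C1qc was 8.42, 8.35, 8.27, 8.16 and 8.05 in the mild line, all below the lowest severe line value of 8.53 (limma adjusted p = 0.000969). C1qb was 9.03, 9.35, 9.88, 9.20 and 9.31 in the severe line and 8.71, 8.69, 9.11, 8.73 and 8.44 in the mild line, and mild line replicate 3 passed the lowest severe value (adjusted p = 0.0251). Lyve1 was 8.18, 8.25, 7.95, 8.39 and 8.83 in the severe line, 8.00, 7.61, 7.73, 7.89 and 7.66 in the mild line and 8.11, 8.56, 8.24 and 7.99 in wild type, so that severe line replicate 3 lay below the highest mild line value and the severe line overlapped both groups (adjusted p = 0.0377 against mild). The Lyve1 means were 8.32 in the severe line, 8.23 in wild type and 7.78 in the mild line. A call against the mild line thus need not be a rise above wild type. Mrc1 of the mild line was 8.43, 8.50, 8.36, 8.20 and 8.21, each below every severe line value (limma adjusted p = 0.0137).

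No single array decided the higher values of Lgals3, C1qc, Laptm5, Lyz1, Lyz2, Mrc1 and Adgre1 against the mild line, which were called with any 1 array of the 2 lines left out. The other 5 were less firm. The adjusted p passed 0.05 for C1qb without mild line replicate 2 or 5 or severe line replicate 3 (0.0531 to 0.0789) and for Fcgr3 without the same arrays (0.0545 to 0.0665). It did so for Ly86 without mild line replicate 1, 4 or 5 or severe line replicate 3 or 5 (0.0515 to 0.0921). It did so for Cx3cr1 without mild line replicate 1, 2, 3 or 4 or severe line replicate 4 or 5 (0.0569 to 0.0985), and for Lyve1 without mild line replicate 2, 3, 4 or 5 or severe line replicate 2, 4 or 5 (0.0509 to 0.104).

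**Figure D3:**
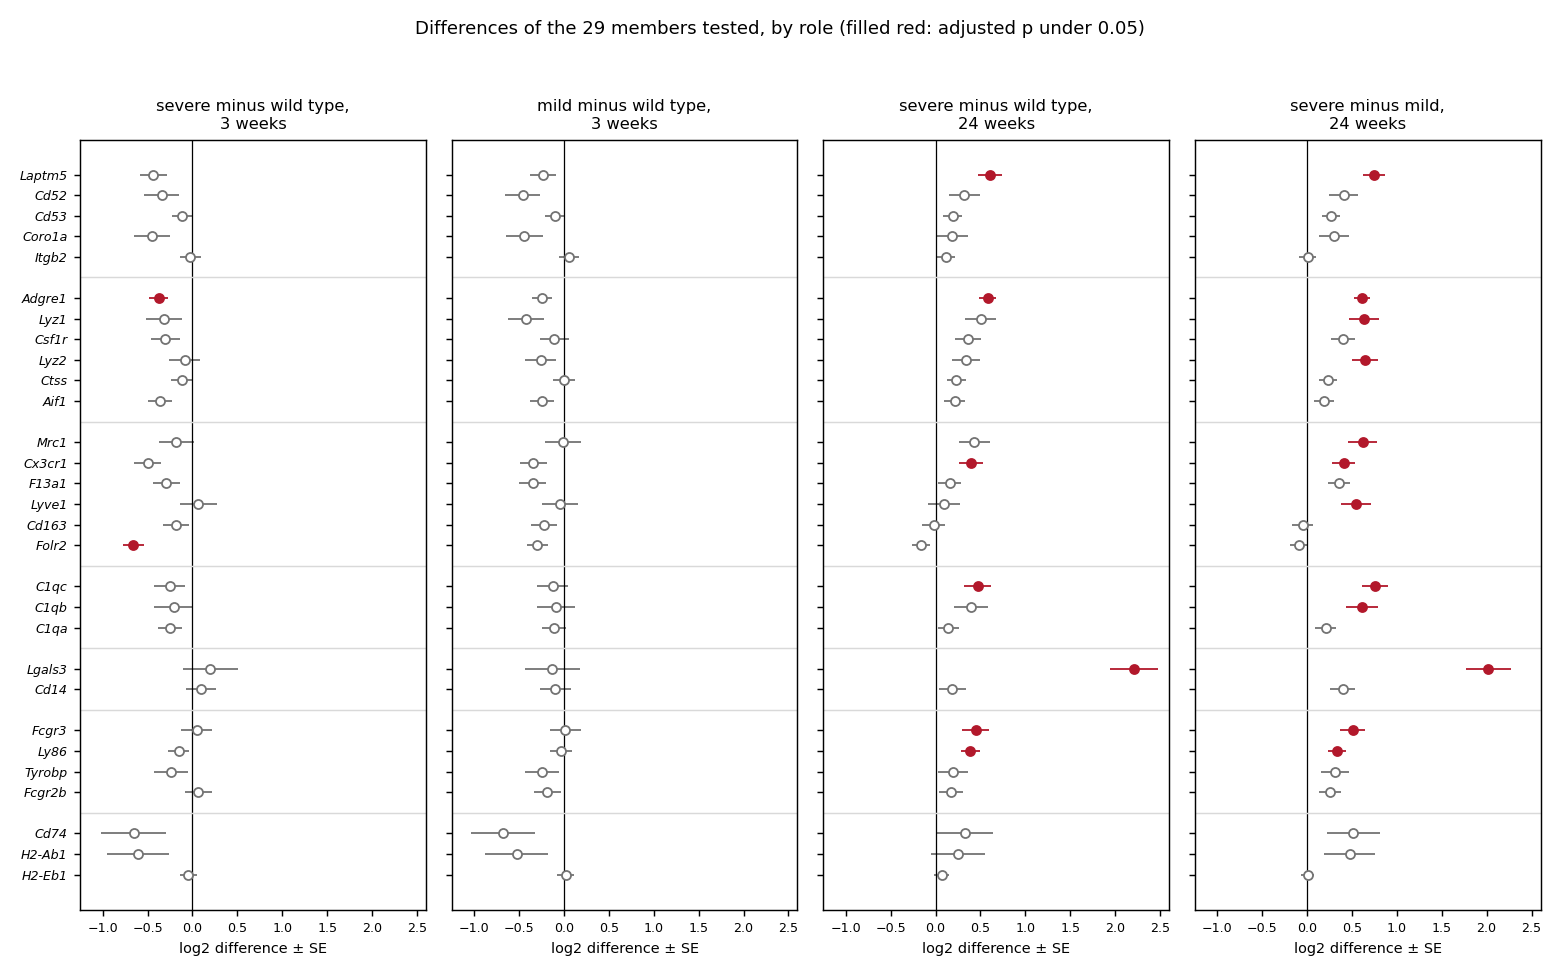
Log2 differences ± SE (horizontal axis) of the 29 members, in rows by role, for severe line minus wild type and mild line minus wild type at 3 weeks, and severe line minus wild type and severe line minus mild line at 24 weeks. Filled red points passed an adjusted p under 0.05: 2 fell in the severe line at 3 weeks, none changed at that age in the mild line, and 7 and 12 rose in the severe line at 24 weeks against wild type and against the mild line.

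In mild line hearts of 24 weeks none of the 29 members rose or fell against wild type by limma (0.425% and 0.541% of all genes did), and at an unadjusted p under 0.05 none rose and 1 fell. The median was -0.08 and every member overlapped wild type, where 2.16% of genes had all mild line arrays above and 1.64% all below wild type. Lgals3 averaged 8.94 ± 0.48 in the mild line and 8.75 ± 0.25 in wild type, and Adgre1 7.53 ± 0.11 and 7.56 ± 0.13 (SD, n = 5 and 4).

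At 3 weeks the values of both lines lay mostly below wild type. Red blood cell markers (3 genes) had means of 11.25 to 12.99 (severe line), 12.08 to 12.44 (mild line) and 11.44 to 11.65 (wild type) at this age, with none called, and their part in the values of the members was not tested. In the severe line 2 members fell, Folr2 and Adgre1, and none rose, where 1.96% of all genes fell and 2.66% rose. At an unadjusted p under 0.05, 6 members fell and 0 rose, with no share of all genes counted. The median was -0.24, against -0.003 over all genes, with 5 of 29 above 0. Folr2 was 7.30, 7.19 and 6.95 in the severe line, 7.44, 7.58 and 7.49 in the mild line and 7.84, 7.78, 8.01 and 7.58 in wild type. The severe line lay below both other groups, and the difference from wild type was -0.66 ± 0.12 (SE, limma adjusted p = 0.00121). A second Folr2 probe fell by 0.44 (adjusted p = 0.0372). The call was kept with any 1 array left out. It was lost within the set of higher background and with median scaling (adjusted p = 0.0503). No call is read from the lower set, which held 1 severe line array of this age.

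Adgre1 at 3 weeks was 7.77, 7.53 and 7.39 in the severe line and 7.91, 8.03, 7.97 and 7.85 in wild type. The groups were apart, and the difference of -0.38 ± 0.11 was near the threshold (SE, limma adjusted p = 0.0474). Its adjusted p was 0.0609 to 0.301 without severe line replicate 2 or 3 or any 1 wild type array. In all, 7 of 29 members (Laptm5, Adgre1, Aif1, Cx3cr1, Folr2, Cd74 and H2-Ab1) had every severe line array below every wild type array, as 8.8% of all genes did. Laptm5 was 10.60, 10.47 and 10.17 in the severe line and 10.95, 11.04, 10.69 and 10.71 in wild type. Cx3cr1 was 7.69, 7.68 and 7.71 in the severe line and 8.16, 8.45, 7.99 and 8.19 in wild type. Neither was called, at -0.44 (adjusted p = 0.104) and -0.50 (adjusted p = 0.0561).

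The mild line at 3 weeks had no called member in either direction by limma, where 1.07% of genes rose and 1.26% fell. At an unadjusted p under 0.05, 0 members rose and 7 fell, with no share of all genes counted. The median of the members in the mild line was -0.19, against 0.005 over all genes, and 3 of 29 lay above 0. All mild line arrays were below all wild type arrays for 8 members (Coro1a, Cd52, Adgre1, Aif1, Folr2, F13a1, Cd74 and H2-Ab1), as for 7.1% of all genes. Cd74 was 8.79, 9.12 and 8.93 in the mild line, 9.25, 9.19 and 8.46 in the severe line and 9.39, 9.73, 9.76 and 9.63 in wild type. H2-Ab1 was 7.84, 7.80 and 7.84 in the mild line, 7.90, 7.96 and 7.38 in the severe line and 8.19, 8.52, 8.38 and 8.32 in wild type. Both lines were thus under the wild type range of both genes at 3 weeks, with differences of -0.53 to -0.68 and adjusted p of 0.384 to 0.684. These non-calls depended on the arrays in the fit. With the mild line and wild type arrays of 3 weeks alone, 4 members were called lower in the mild line, Cd74 (adjusted p = 0.00441), H2-Ab1 (0.00675), Cd52 (0.0360) and Coro1a (0.0431). The same kind of fit for the severe line called H2-Ab1 (0.0337) and Cx3cr1 (0.0250) lower, which the fit of all arrays did not. No share of all genes was counted in these smaller fits, so their counts lack a background. Severe and mild lines at 3 weeks did not differ in any member by limma (0.45% of genes higher and 0.125% lower), with 0 higher and 1 lower at an unadjusted p under 0.05 and a median of -0.06.

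Whether the difference from wild type changed between the ages was tested in the same fit. In the severe line it rose for 4 members and fell for none at an adjusted p under 0.05 (0.45% and 0.233% of all genes). The 4 were Lgals3 by 2.01 ± 0.41 (SE, limma adjusted p = 0.0156), Laptm5 by 1.05 ± 0.20 (0.00889), Adgre1 by 0.96 ± 0.14 (0.000813) and Cx3cr1 by 0.90 ± 0.20 (0.0324). At an unadjusted p under 0.05 it rose for 17 and fell for 0, with no share of all genes counted. Lgals3 and Laptm5 passed 2-fold, as 0.233% of genes did. The median over the 29 was 0.54, against 0.0005 over all genes, and all 29 were above 0. Itgb2, detected on only 3 arrays, is among them, and the signs of the members are not independent. Without the arrays with lung markers the count was 2. The adjusted p of Cx3cr1 was 0.0539 to 0.0937 without any 1 of severe line replicate 4 of 24 weeks, the 3 severe line arrays of 3 weeks, wild type replicates 1, 2 and 3 of 24 weeks and wild type replicates 1, 2 and 4 of 3 weeks. In the mild line no member changed by limma (0.0167% of genes rose and 0.05% fell), with 0 at an unadjusted p under 0.05 in either direction and a median of 0.09.

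In wild type hearts of 24 against 3 weeks 2 members fell, Cx3cr1 and Adgre1, and none rose (1.61% of all genes fell and 0.966% rose), with 4 lower and 2 higher at an unadjusted p under 0.05. Cx3cr1 was 7.28, 7.07, 7.10 and 7.59 at 24 weeks and 8.16, 8.45, 7.99 and 8.19 at 3 weeks. The ages did not overlap, and the difference was -0.94 ± 0.14 (SE, limma adjusted p = 0.000198). Adgre1 differed by -0.38 ± 0.10 (adjusted p = 0.0419), which was 0.0546 to 0.157 without wild type replicate 1, 2 or 3 of 24 weeks or any 1 wild type array of 3 weeks. Severe line Cx3cr1 at 24 weeks therefore stood at 7.66 ± 0.30 between wild type of the same age (7.26 ± 0.24) and wild type of 3 weeks (8.20 ± 0.19; SD, n = 5, 4 and 4). Cd74 and H2-Ab1 were 0.65 and 0.70 higher at 24 weeks (adjusted p = 0.429 and 0.354).

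Other genes of macrophage biology were described by 4 further lists. Their counts stand beside 8.26% of all genes that rose and 7.32% that fell in the severe line at 24 weeks. Of 14 ligands and growth factors that draw or feed myeloid cells, 3 rose in the severe line at 24 weeks and 1 fell: Ccl8, a monocyte chemokine, by 0.60 ± 0.12 (SE, limma adjusted p = 0.000726), Cx3cl1, the ligand of the receptor that Cx3cr1 encodes, by 0.50 ± 0.11 (0.00157), and Mif by 0.47 ± 0.15 (0.0371), while the eosinophil chemokine gene Ccl11 fell by 0.46 (0.00163). Of 15 further genes of recruited and activated macrophages 4 rose and 1 fell. Gpnmb, a glycoprotein of lipid-laden macrophages, rose by 1.72 ± 0.33 (adjusted p = 0.000744), the lysosomal protease gene Ctsz by 0.75 ± 0.17 (0.00369) and the tetraspanin gene Cd9 by 0.64 ± 0.20 (0.0316). The lipid receptor gene Trem2 rose by 0.45 ± 0.10 (0.00191), and Lpl, the lipoprotein lipase of heart muscle as well, fell by 0.48 (0.0162). Of 16 further resident macrophage genes 3 rose and 1 fell: Igf1, a growth factor that fibroblasts also make, by 0.86 ± 0.12 (1.69e-05), Gas6, the bridging ligand for engulfment, by 0.72 ± 0.19 (0.00921) and the membrane protein gene Ms4a7 by 0.69 ± 0.13 (0.000725), and the ficolin gene Fcna fell by 0.56 (0.0353). None of 15 further antigen presentation genes was called in the severe line at 24 weeks, and in wild type hearts B2m, the class I light chain, and H2-D1, a class I heavy chain, were 1.05 and 0.90 higher at 24 than at 3 weeks (adjusted p = 0.0187 and 0.0244). The list medians in the severe line at 24 weeks were 0.01, 0.18, 0.10 and 0.00, against 0.00 over all genes.

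**Figure D4:**
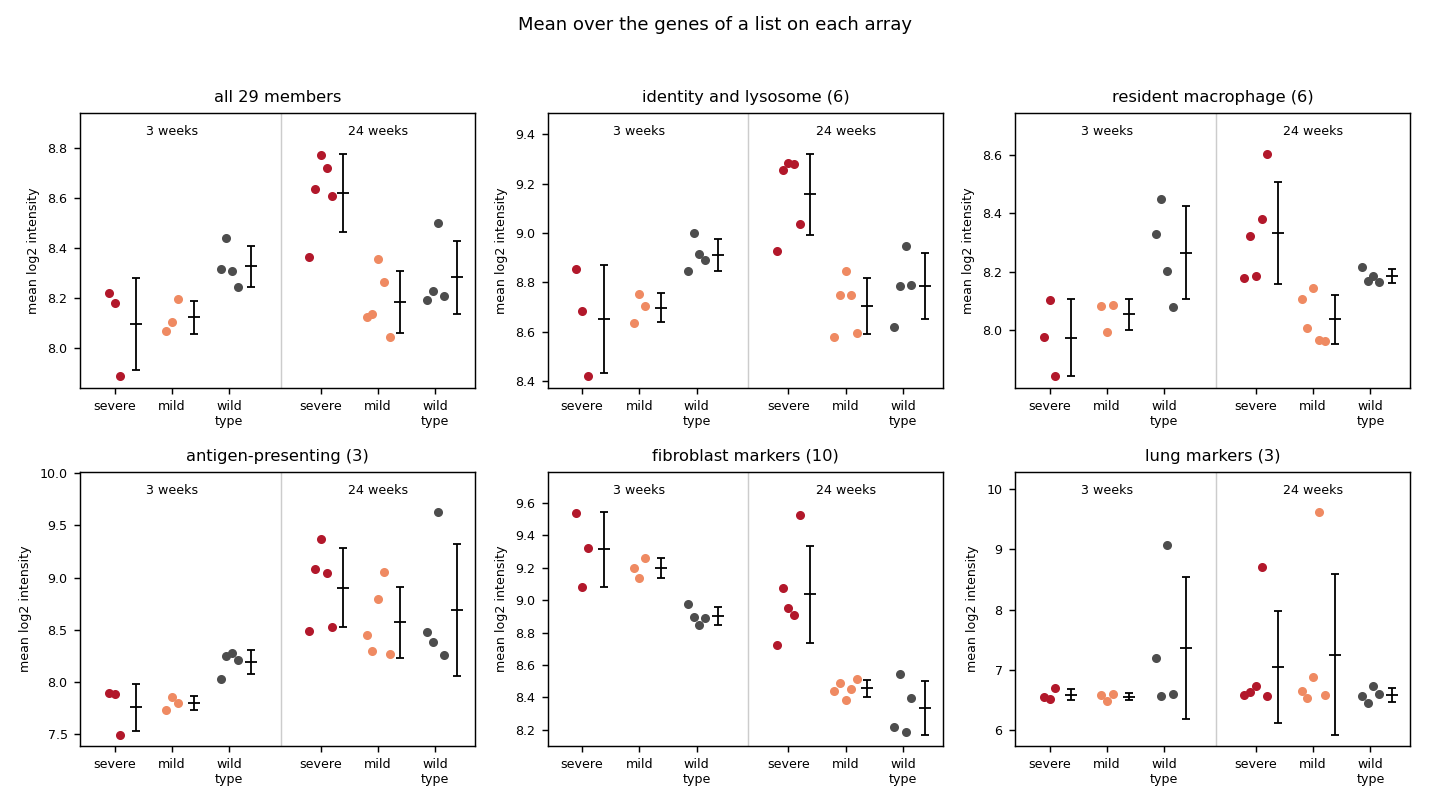
Mean log2 intensity (vertical axis) over the genes of a list on each array, for all 29 members, 3 member roles, fibroblast markers and lung markers, by line and age, with mean ± SD beside the points. The severe line at 24 weeks lies at 8.37 to 8.77 for all members and at 8.72 to 9.52 for fibroblasts, and the 3 high points of the lung panel are the arrays named in the text.

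Markers of other cells moved with some of these results. Of all genes, 8.26% rose and 7.32% fell in the severe line against wild type at 24 weeks. Against the mild line at that age 5.94% rose and 5.33% fell. At 3 weeks 2.66% of all genes rose in the severe line and 1.07% in the mild line. Fibroblast markers, all 10 tested, had array means at 24 weeks of 8.72 to 9.52 (severe line), 8.38 to 8.51 (mild line) and 8.19 to 8.54 (wild type), and 6 of 10 rose against wild type. At 3 weeks the means were 9.08 to 9.54 (severe line), 9.14 to 9.26 (mild line) and 8.85 to 8.98 (wild type), and 2 of 10 rose in the severe line and 1 of 10 in the mild line. Fibroblast means of the severe line were above the wild type range at both ages. Those of the mild line at 24 weeks overlapped wild type, with none called. Lymphatic endothelium markers, all 6 tested, had means of 8.46 to 8.88 (severe line), 8.11 to 8.33 (mild line) and 8.05 to 8.25 (wild type) at 24 weeks, with 4 up (Ccl21a, Mmrn1, Pdpn and Reln) and 1 down (Prox1) against wild type. Against the mild line at 24 weeks 4 of the 10 fibroblast markers and 4 of the 6 lymphatic markers were higher in the severe line, and Prox1 again was lower. The part of either cell type in the values of the members, Lyve1 among them, was not tested. Markers of T cells (8 of 13 tested), neutrophils (5 of 10), dendritic cells (4 of 9), natural killer cells (3 of 5) and B cells (2 of 6) had no gene called against wild type in the severe line at 24 weeks. Against the mild line 2 of 8 T cell markers, Cd8b1 by 0.41 (adjusted p = 0.0164) and Thy1 by 0.37 (0.0324), and 1 of 2 B cell markers, Cd79b by 0.30 (0.0436), were higher in the severe line, and their part in the 12 calls was not tested. Cd8b1 and Thy1 were detected on all 24 arrays, but Cd4 and Cd8a on none, and Cd3d, Cd3g and Cd3e on 6, 4 and 13. The Cd8b1 and Thy1 calls are thus not read as a difference in T cells. T cell markers averaged 7.28 to 7.38 in the severe line and 7.23 to 7.38 in wild type, and B cell markers 6.54 to 6.95 and 6.43 to 6.66. Neutrophil markers had means of 6.81 to 7.84 (severe line), 6.85 to 7.69 (mild line) and 6.70 to 7.29 (wild type).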

How the data were processed

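Whole-heart RNA was measured on 24 BeadChip arrays, and groups, ages and lines came from the labels and the methods of the study. The deposited intensity of a probe is its bead-summary signal before normalization. The deposited log2 values hold this signal after quantile normalization across the 24 arrays and without background subtraction, so differences of dim probes understate changes in RNA. A deposited detection p-value compares each probe with the array's negative controls. Scanner and normalization software are not given in the sources used here. A further 48 columns (bead errors and numbers) were not used, and the earlier arrays that the study pooled with these were not analysed here. The number of arrays, 3 to 5 per group, limits precision.

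Of 45281 probes, 34885 had 1 symbol in the platform annotation, 18 several and 10378 none. Probes detected (p under 0.05) on 3 arrays or more were kept, and the brightest probe over all arrays stood for a gene. One linear model of 6 groups was fitted with limma 3.58.1 in R 4.3.3 (package data.table, version 1.17.8), with Benjamini-Hochberg adjustment over 12011 genes. The 2-fold threshold also asked for a raw p under 0.001 or an adjusted p under 0.05. The fit was tested on simulated data. Motifs were counted in RefSeq promoters.

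Members and lists were chosen with earlier results of these data known. All 36 members are accounted for. Arrays are given in full for up to 4 members per role called in the severe line at 24 weeks, for up to 4 per comparison called elsewhere, and for some members (C1qb, Mrc1, Lyve1, the MHC class II genes, and Laptm5 and Cx3cr1 at 3 weeks) beyond that rule that were chosen after their values were seen; other lists are named by up to 3 called genes, largest first, and Ccl11, Trem2, Lpl, Fcna, Mmrn1 and Prox1 were added after their values were seen. Alternatives changed the background correction, scaling, detection filter, probe choice, samples in the fit, array weights, wild type arrays, blocks and single arrays. One, leaving out 3 arrays with lung markers, was chosen after seeing the data.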

Additional observations from a re-analysis of the deposited data

Results flagged for a closer look

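Of 120 group checks (29 members and their mean in the 4 groups of 4 or 5 arrays), 8 found 1 array far from the rest of its group, and chance gives about 1 in 20. Wild type replicate 3 at 24 weeks accounted for 4: it had 11.54 for Cd74 (9.75 to 10.00 on the other 3), 8.71 for Cd52 (8.06 to 8.13), 6.95 for H2-Eb1 (6.64 to 6.69) and 8.50 for the mean over the 29 members (8.19 to 8.23). Mild line replicate 3 at 24 weeks was high for Laptm5 (10.70, against 10.22 to 10.35) and Fcgr3 (7.95, against 7.38 to 7.53). Mild line replicate 1 at 24 weeks was low for Adgre1 (7.34, against 7.55 to 7.61), and wild type replicate 1 at 3 weeks was low for Csf1r (8.53, against 8.97 to 9.01).

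The effects of the lines differed at 24 weeks, by the limma contrast of severe against mild line, for 12 members: Lgals3 by 2.02 log2 units, C1qc by 0.76, Laptm5 by 0.75, Lyz2 by 0.65, Lyz1 by 0.64, Mrc1 by 0.62, C1qb and Adgre1 by 0.61, Lyve1 by 0.54, Fcgr3 by 0.51, Cx3cr1 by 0.41 and Ly86 by 0.34. The difference of the severe line from wild type was larger at 24 than at 3 weeks, by the interaction term, for Lgals3 by 2.01, Laptm5 by 1.05, Adgre1 by 0.96 and Cx3cr1 by 0.90.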

How the results depend on the processing

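Every alternative kept the sign of each called member difference, and the calls were kept in 469 of 641 such refits. Save for background correction and median scaling, no share of all genes was counted in an alternative. Counts of members in the alternatives, here and elsewhere, thus lack a background. Lgals3 and Adgre1 in the severe line against wild type at 24 weeks were called in all 23. For the severe line against wild type at 24 weeks the count was 4 with no detection filter, 3 with its own 2 groups alone in the fit, 3 with the wild type arrays of its own line, 3 and 2 in fits of each background set alone (higher, then lower), 4 without the arrays with lung markers and 4 to 8 with 1 array left out. With runs of 6 successive title numbers as a block it was 9, Lyz1 (adjusted p = 0.0292) and C1qb (0.0386) being added, and 16 against the mild line. Against the mild line at 24 weeks it was 2 and 3 within these sets and 6 without the arrays with lung markers. Against wild type at 3 weeks the severe line had 5 with array weights and 0 with median scaling and within the set of higher background. It had 1 with background correction, the background set as a block, the mean of all probes, no filter and own-line wild type arrays. With 1 array left out it had 1 to 2. In the mild line at 3 weeks it was 1 with array weights and 4 with its own 2 groups alone. For the change of the severe line with age it was 1 with median scaling, with own-line wild type arrays and within the set of higher background. It was 2 without the arrays with lung markers. Counts of the lower set that involve a transgenic line at 3 weeks, where it held 1 array per line, are not given. For wild type of 24 against 3 weeks it was 0 with median scaling and within the lower set, and 1 with background correction, the background block, the mean of probes, its own groups alone, within the higher set and without the arrays with lung markers, and 1 to 2 with 1 array left out.

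Some medians moved by more than 0.133, the spread of the mean over members between replicates. Severe against mild line at 24 weeks was 0.55 with background correction and 0.61 with median scaling, against 0.40 as reported. Severe against wild type at 24 weeks was 0.42 with median scaling. Severe against wild type at 3 weeks was -0.038 with median scaling and -0.38 within the lower set. With 1 array left out it was -0.31 to -0.11, of which -0.31 had not moved by that much. Severe against mild at 3 weeks was 0.11 with median scaling, and 0.11 and -0.31 within the higher and lower set. Mild against wild type at 3 weeks was -0.016 within the lower set. The change with age in the severe line was 0.76 with background correction and 0.69 within the lower set. In the mild line that change was -0.0565 within the lower set. Wild type with age was -0.22 and 0.052 within the higher and lower set. The cause was not tested, save that a set holds 12 of 24 arrays and the lower set only 1 array of each transgenic line at 3 weeks. Median scaling shifted the median of all genes by 0.11 in the severe line against wild type at 3 weeks and against the mild line at both ages, and the share of rises among all calls to 82.0% in the severe line against wild type at 24 weeks, against 53.0% as reported.

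The numbers in the labels were not taken to pair the mice, and the correlations do not settle whether they do. Deviations from the group means were correlated between severe and mild line arrays, and between severe line arrays and wild type arrays of that line. Mild line arrays were not compared with wild type arrays of the mild line. Arrays of 1 number correlated at -0.26 to 0.57, with 7 of 12 pairs over 0.1 and a median of 0.14. Arrays of different numbers correlated at -0.56 to 0.53, with 10 of 38 over 0.1 and a median of -0.05. With the label numbers as a replicate block, 4 members rose in the severe line against wild type at 24 weeks and 17 against the mild line. With this block 3 members fell in the severe line at 3 weeks. Signal over background removed 6 of the 35 members with a probe.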
